A study of Homo sapiens with 6 samples.

Results

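Genes of cholesterol synthesis, uptake, sensing, storage and export were examined in C42 cells in which the histone methyltransferase gene NSD2 was knocked down. The 30 genes were taken from the raw counts table by symbol, from a list of 18 synthesis enzymes and 12 genes of sensing, uptake, storage and export. All 30 had a row among 31413, and 29 of them were among the 17160 genes tested. The export pump gene ABCA1 was below the low-count filter. C42, usually written C4-2, is a prostate cancer line derived from LNCaP. Cells in both groups grew in RPMI with serum and carried an shRNA, either the control shCTR or shNSD2, which targets NSD2 (WHSC1). Each group has 3 libraries of polyadenylated RNA, counted per gene. The control libraries are labelled shCTR 1, 2 and 4, and those of the knockdown shNSD2 1, 2 and 3. The labels do not state how many hairpins or clones stand behind a group, nor whether its libraries are separate cultures, so the p-values cover the spread between these libraries only.

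Cells make cholesterol from acetyl-CoA through mevalonate and isoprenoids to squalene, which is cyclised to lanosterol and then trimmed to cholesterol. The transcription factor SREBP-2, the product of SREBF2, drives these genes when membrane sterol is low. SCAP carries it from the endoplasmic reticulum to the proteases that release it, and the INSIG proteins hold SCAP back when sterol is plentiful. Surplus cholesterol is esterified by SOAT1 or exported by ABC transporters under the liver X receptors, which sense oxysterols. Cholesterol is also the source of steroid hormones, and prostate tumours are known to store it as esters.

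NSD2 held 219, 223 and 200.1 CPM (read counts per library size, scaled by TMM) in the shCTR libraries and 85.3, 86.4 and 89.7 CPM in the shNSD2 libraries, so that the groups did not overlap. Its mean in shNSD2 was 40.7% of that in shCTR (exact two-sided permutation test, p = 0.1, the smallest that 3 against 3 libraries allow). Libraries held 19412896 to 20665494 counts, and 3 counts correspond to 0.145 to 0.155 CPM, which covers counting error only. The library shCTR 4 stood apart from the other controls. Its counts differed from those of shCTR 1 and 2 with a chi-square per degree of freedom of 43.1 and 20.6. Against shNSD2 1, 2 and 3 the values were 29.4, 16.3 and 24.6, so that shCTR 2 was nearer to it than shNSD2 1 and 3. Over all genes, the calls numbered 4251 higher and 4011 lower without shCTR 4, against 2658 and 2605 with all 6 libraries. Within a group this chi-square ran from 10.9 to 43.1 among shCTR and from 4.09 to 9.89 among shNSD2 libraries, so none was a copy of another. For the markers and the 3-count level, CPM was taken per total count, without the TMM factors, which ran from 0.990 to 1.01. All 10 luminal prostate markers were above 1 CPM in every library. Of 5 leukocyte markers 3 had a row, with a summed level of 0.361 to 0.389 CPM in shCTR and 0.103 to 0.354 CPM in shNSD2. Of 6 endothelial and fibroblast markers 5 had a row, with a summed level of 24.4 to 27.6 CPM in shCTR and 34.7 to 38.0 CPM in shNSD2, nearly all from COL1A1 and VWF. COL3A1 went the other way, with 29, 25 and 19 counts in shCTR and 4, 7 and 4 in shNSD2. The defining endothelial marker PECAM1 had 1, 0 and 0 counts in shCTR and 0 in each shNSD2 library. The part of these markers in the results was not tested.

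Of the 29 genes tested, 8 rose and 3 fell in the shNSD2 libraries (edgeR quasi-likelihood test, adjusted p under 0.05 over all genes tested). The genes that rose were SREBF2, INSIG1, STARD4 and NR1H2 outside the synthesis list and MVK, MVD, FDFT1 and HSD17B7 within it. The genes that fell were SOAT1, which esterifies cholesterol, and CYP51A1 and SC5D, which encode enzymes of the sterol end of synthesis. The share called, 37.9%, has to be read against a background of 30.7% of all genes tested, of which 15.5% were higher and 15.2% lower. Groups did not overlap for 12 of the 29 genes, or 41.4%, against 46.8% of all genes tested. Either share lies near its background, so the number of changes says nothing particular about these genes. Without shCTR 4, where the background was 46.5%, 12 genes were higher and 6 lower, the 11 called with all libraries among them. These are bulk RNA levels relative to the total, so a change in each cell and a change in the share of cells with the RNA cannot be told apart.

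**Figure D1:**
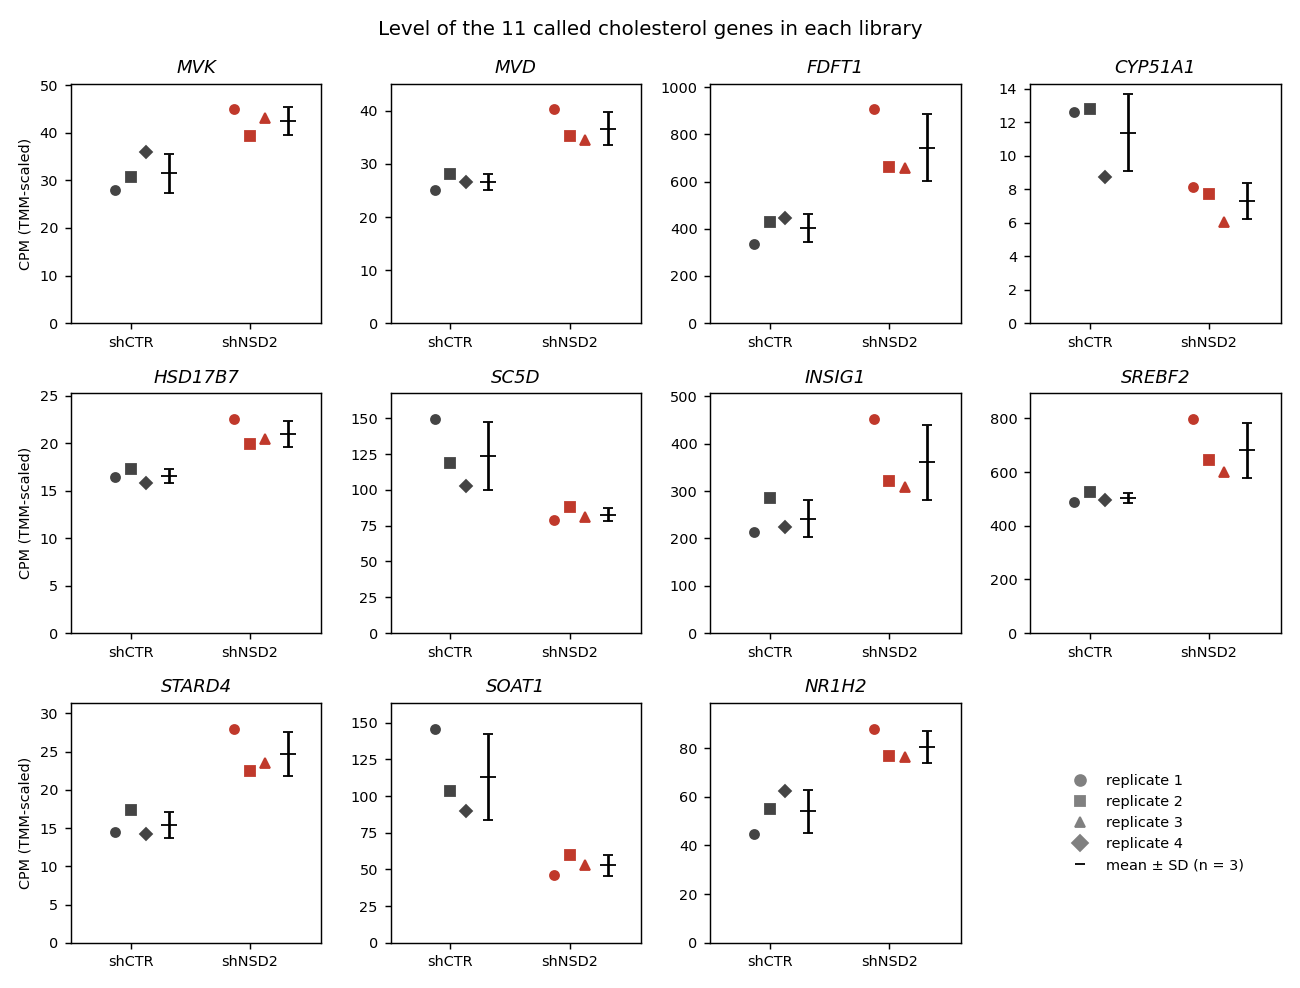
Level of each of the 11 called genes in TMM-scaled CPM (vertical axes, from 0) in the 3 shCTR libraries (grey) and the 3 shNSD2 libraries (red). Symbols give the replicate number, and bars the mean ± SD. In every panel all libraries of a group lie on one side of the other group, and shNSD2 1 lies farthest from the controls in 10 of the 11.

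In sterol sensing, SREBF2 and INSIG1 rose while INSIG2 and SCAP did not pass the test. SREBF2 (chromosome 22 from 41833079 to 41907308 on GRCh38) held 488, 525 and 497 CPM in shCTR 1, 2 and 4 and 797, 645 and 601 CPM in shNSD2 1, 2 and 3. All knockdown libraries lay above all controls, and shNSD2 1 was the highest. The fold change was 1.35, or 0.44 on the log2 scale (SE 0.122, edgeR adjusted p = 0.0227). INSIG1, which retains SCAP in the endoplasmic reticulum and is itself a target of SREBP-2 (chromosome 7 from 155297776 to 155310235), held 214, 286 and 224 CPM in the controls and 452, 321 and 308 CPM in the knockdown libraries. The gap between shCTR 2 and shNSD2 3 was small beside the spread within each group, and the change was 1.49-fold (log2 0.58, SE 0.161, edgeR adjusted p = 0.0223). Neither call was kept in every fit with a library left out. Calls over all genes were also fewer in these fits, except in the one without shCTR 4. INSIG1 had an adjusted p = 0.0856 without shNSD2 1 and 0.0643 without shCTR 1, and SREBF2 had 0.0945 without shNSD2 1, 0.0652 without shCTR 2 and 0.0576 without shNSD2 2.

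INSIG2, the paralog of INSIG1, was almost level, with 18.2 to 18.4 CPM in shCTR and 17.8 to 20.9 CPM in shNSD2. Its log2 difference was 0.07, with a 95% interval of -0.14 to 0.28. SCAP, the SREBP escort, had 163 to 212 CPM in shCTR and 154 to 176 CPM in shNSD2. Its log2 difference of -0.17 did not pass the test (edgeR adjusted p = 0.260), although it did without shCTR 4 (log2 -0.27, adjusted p = 0.0205).

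The stretch of 250 bases before the start is shown for 6 called genes, so that the letters before genes that rose can be read beside those before genes that fell. Sequences are those of RefSeq on GRCh38.p14, read 5′ to 3′ on the strand of the gene. Capitals mark letters of the sterol regulatory element TCACNCCAC, the NF-Y box CCAAT or the GC box GGGCGG on either strand. The first 4 genes rose and the last 2 fell. The stretches lie at chr22:41832855-41833104 (plus strand), chr7:155297628-155297877 (plus), chr5:111512536-111512785 (minus), chr16:88663092-88663341 (minus), chr1:179293547-179293796 (plus) and chr7:92134478-92134727 (minus).
SREBF2: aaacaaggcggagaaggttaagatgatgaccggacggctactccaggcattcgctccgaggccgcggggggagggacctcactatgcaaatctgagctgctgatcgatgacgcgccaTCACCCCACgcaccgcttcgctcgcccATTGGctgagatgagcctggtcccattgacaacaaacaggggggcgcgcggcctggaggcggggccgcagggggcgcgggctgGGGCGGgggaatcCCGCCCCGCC
INSIG1: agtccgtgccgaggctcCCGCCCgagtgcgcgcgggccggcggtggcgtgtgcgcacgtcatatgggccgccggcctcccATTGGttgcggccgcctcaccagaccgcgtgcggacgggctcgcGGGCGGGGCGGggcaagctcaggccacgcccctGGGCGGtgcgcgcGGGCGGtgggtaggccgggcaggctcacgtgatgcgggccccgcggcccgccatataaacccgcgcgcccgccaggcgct
STARD4: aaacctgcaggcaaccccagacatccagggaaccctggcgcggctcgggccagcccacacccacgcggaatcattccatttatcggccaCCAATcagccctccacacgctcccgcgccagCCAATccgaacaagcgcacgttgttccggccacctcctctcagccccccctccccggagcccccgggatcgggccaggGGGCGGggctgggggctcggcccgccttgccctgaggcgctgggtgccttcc
MVD: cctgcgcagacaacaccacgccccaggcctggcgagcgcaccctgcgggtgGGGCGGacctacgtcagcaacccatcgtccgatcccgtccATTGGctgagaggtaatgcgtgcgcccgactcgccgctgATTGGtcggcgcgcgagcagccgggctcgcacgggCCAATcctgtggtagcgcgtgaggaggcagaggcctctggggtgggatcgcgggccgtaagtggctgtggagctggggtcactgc
SOAT1: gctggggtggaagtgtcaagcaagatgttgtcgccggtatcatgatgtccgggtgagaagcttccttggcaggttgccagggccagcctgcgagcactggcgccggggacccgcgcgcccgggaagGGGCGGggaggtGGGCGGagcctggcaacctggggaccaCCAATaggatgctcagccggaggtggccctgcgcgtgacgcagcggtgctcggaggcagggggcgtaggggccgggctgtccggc
CYP51A1: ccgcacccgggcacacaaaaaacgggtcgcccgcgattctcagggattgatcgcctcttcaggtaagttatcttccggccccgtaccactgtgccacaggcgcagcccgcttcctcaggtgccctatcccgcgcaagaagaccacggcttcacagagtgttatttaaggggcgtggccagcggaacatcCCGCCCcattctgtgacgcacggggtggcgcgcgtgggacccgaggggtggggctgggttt

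Promoter windows, from 250 bases before to 50 after a start, were found for 26 of the 30 genes, 33 windows in all since some genes have several starts. The strict element TCACNCCAC was found in 1 of them, that of SREBF2, where it reads TCACCCCAC and begins at position -133 from the start. Of all 35116 windows of this length 1.13% hold it. An NF-Y box stood in 63.6% of the 33 windows (15 of 20 for synthesis enzymes, 6 of 13 for the other genes) against 34.6% of all windows. A GC box stood in 93.9% against 45.0%. Some matches overlap, such as a pair of GC boxes in the SREBF2 window and in that of INSIG1. Of the stretches shown, those of SREBF2, INSIG1, STARD4 and MVD, which rose, and of SOAT1, which fell, hold at least 1 NF-Y box, and that of CYP51A1 holds 0. The called genes not shown were divided too. NR1H2, which rose, has 0 NF-Y boxes in its window, and SC5D, which fell, has 1 in each of its windows. MVK and HSD17B7, which rose, have at least 1, and FDFT1 had no window. The boxes thus did not separate genes that rose from genes that fell. A match describes the letters only, and no binding was measured.

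From acetyl-CoA to farnesyl diphosphate, the 7 genes of the mevalonate and isoprenoid steps all had a positive log2 fold change, from 0.01 to 0.46. Of them 2 passed the test, 28.6% beside 30.7% of all genes tested. MVK, mevalonate kinase (chromosome 12 from 109573255 to 109598117), held 27.9, 30.7 and 36.0 CPM in shCTR and 44.9, 39.3 and 43.2 CPM in shNSD2. The groups were apart, with shCTR 4 nearest to the knockdown libraries. MVK rose 1.35-fold (log2 0.43, SE 0.107, edgeR adjusted p = 0.0144). The adjusted p was 0.0607 without shCTR 2, 0.0573 without shNSD2 1 and 0.0595 without shNSD2 3. MVD, which makes isopentenyl diphosphate (chromosome 16 from 88651935 to 88663161), held 25.1, 28.2 and 26.6 CPM in shCTR and 40.3, 35.3 and 34.4 CPM in shNSD2. Its knockdown libraries were all above its controls, and it rose 1.38-fold (log2 0.46, SE 0.0953, edgeR adjusted p = 0.00674), a call kept in all 6 fits with a library left out. With the GC and length correction it was 0.30 (adjusted p = 0.0265).

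The remaining members of this stretch did not pass the test. PMVK, phosphomevalonate kinase, went from 51.7 ± 8.21 to 63.2 ± 4.73 CPM (SD, n = 3), with shCTR 4 at 60.2 CPM inside the range of the knockdown libraries. Its log2 difference of 0.29 (edgeR adjusted p = 0.0802) became 0.41 without shCTR 4 (adjusted p = 0.00178) and 0.07 with a correction for GC content and gene length (adjusted p = 0.585). HMGCS1, which makes the HMG-CoA that enters the pathway, had 86.9 to 101 CPM in shCTR and 100.5 to 118 CPM in shNSD2 (log2 0.22, edgeR adjusted p = 0.09995). IDI1, the isopentenyl diphosphate isomerase, differed by 0.18 on the log2 scale and the acetyl-CoA acetyltransferase gene ACAT2 by 0.16. FDPS, farnesyl diphosphate synthase, had controls at 55.0 ± 2.15 CPM and knockdown libraries at 55.5 ± 7.21 CPM (SD, n = 3), with a 95% interval of its log2 difference of -0.21 to 0.24. ACAT2 shares 397 exon bases with TCP1 on the opposite strand, which had 55019 counts over the 6 libraries against 3316 for ACAT2, and without a stated strand setting their reads cannot be told apart there. FDPS shares 693 exon bases with RUSC1-AS1 in the same way, MVK 306 with MMAB, SREBF2 280 with SREBF2-AS1 and STARD4 124 with STARD4-AS1.

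**Figure D2:**
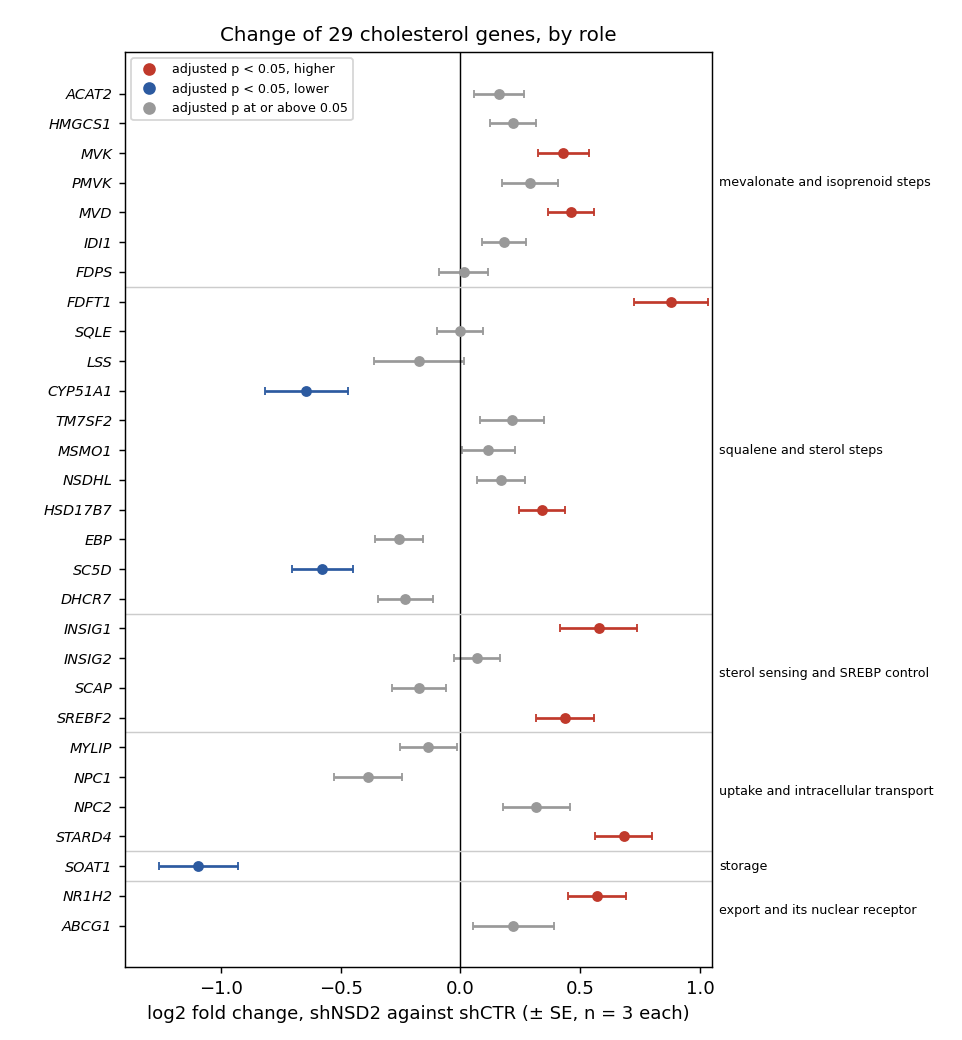
Log2 fold change of shNSD2 against shCTR (horizontal axis, points, with SE bars) for the 29 genes tested, ordered by step or role (vertical axis). Red and blue points are genes called higher and lower, grey points the others. All 7 genes of the mevalonate and isoprenoid steps lie above 0, and the 11 genes of the squalene and sterol steps run from -0.64 to 0.88.

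From squalene to cholesterol 2 of the 11 genes were higher, 2 lower and 7 not called, with a median log2 fold change of 0.00. The share called was 36.4%, near the 30.7% of all genes tested, of which 15.5% were higher and 15.2% lower. FDFT1, squalene synthase, the enzyme that commits farnesyl diphosphate to sterols, had the largest rise of all members, 1.84-fold. It held 335, 431 and 446 CPM in shCTR and 906, 664 and 659 CPM in shNSD2, and every knockdown library was far above every control. The log2 change was 0.88 (SE 0.155, edgeR adjusted p = 0.00367), and between 0.71 and 0.96 with a library left out, called each time. SQLE, which encodes the squalene epoxidase that acts next, had 99.8, 96.4 and 86.4 CPM in the controls and 102.6, 94.2 and 85.8 CPM in the knockdown libraries, the same range. The 95% interval of its log2 difference ran from -0.21 to 0.21.

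HSD17B7, a 3-ketosteroid reductase of this stretch (chromosome 1 from 162790702 to 162812817), held 16.4, 17.3 and 15.8 CPM in the controls and 22.5, 19.9 and 20.4 CPM in the knockdown libraries. The groups were apart and the rise was 1.27-fold (log2 0.34, SE 0.0964, edgeR adjusted p = 0.0232). The call held in 1 of 6 fits with a library left out, the one without shCTR 4, and the adjusted p ranged from 0.0194 to 0.0834. A similar transcribed pseudogene, HSD17B7P2, had 605 counts against 2250 for HSD17B7, and reads may be split between them. CYP51A1, lanosterol demethylase (chromosome 7 from 92112151 to 92134803), held 12.6, 12.8 and 8.71 CPM in shCTR and 8.11, 7.70 and 6.06 CPM in shNSD2. All knockdown libraries were below all controls, shCTR 4 lay close to them, and the gene fell 1.56-fold (log2 -0.64, SE 0.172, edgeR adjusted p = 0.0193). That call was lost without shCTR 1 (adjusted p = 0.0526), shCTR 2 (0.0834) or shNSD2 3 (0.0865). An overlapping gene model on the same strand covers 79.3% of the exon bases of CYP51A1 and has no row in the table, so the level of CYP51A1 depends on how the authors assigned such reads.

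SC5D, the lathosterol desaturase near the end of the pathway (chromosome 11 from 121292453 to 121308694), held 149, 118 and 102 CPM in shCTR and 79.3, 88.1 and 81.0 CPM in shNSD2. Its knockdown libraries were closer together than its controls and all lower, a fall of 1.49-fold (log2 -0.58, SE 0.128, edgeR adjusted p = 0.00895). It was called lower in all 6 fits with a library left out. EBP, the sterol isomerase that precedes it, held 168, 147 and 172 CPM in shCTR and 123, 137 and 146 CPM in shNSD2. The groups only just failed to touch, and the difference did not pass the test (log2 -0.26, edgeR adjusted p = 0.0736). DHCR7, 7-dehydrocholesterol reductase, went from 271 ± 29.5 to 231 ± 23.8 CPM (SD, n = 3; log2 -0.23, edgeR adjusted p = 0.144), and was called lower without shCTR 4 (log2 -0.31, adjusted p = 0.0143).

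LSS, which cyclises squalene epoxide to lanosterol, spread over 34.5 to 50.4 CPM in shCTR and 30.8 to 51.3 CPM in shNSD2, so that its groups covered nearly the same range (log2 -0.17, edgeR adjusted p = 0.500). TM7SF2, a sterol C14 reductase, had 131 to 183 CPM and 155 to 191 CPM. Its log2 difference of 0.21 did not pass with all libraries (edgeR adjusted p = 0.237) and was 0.37 without shCTR 4 (adjusted p = 0.00537), but 0.00 with the GC and length correction (adjusted p = 0.999). The demethylation enzyme genes MSMO1 (log2 0.12) and NSDHL (0.17) were not called, and NSDHL was 0.28 without shCTR 4 (adjusted p = 0.0134) and 0.08 with the GC and length correction (adjusted p = 0.476). Per kilobase of annotated exon, the control levels of the synthesis genes were highest for FDFT1, at 77.7 CPM per kb, EBP at 67.3 and DHCR7 at 65.1, and lowest for CYP51A1 at 3.17 and HSD17B7 at 3.46. All annotated exons of a gene were merged for its length, so genes with long unused exons come out too low on this scale. The levels of CYP51A1 and HSD17B7 also depend on how reads shared with the overlapping gene model and with the pseudogene HSD17B7P2 were assigned.

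Among genes of uptake and of movement inside the cell, 1 of 4 was called, 25% beside 30.7% of all genes tested. STARD4, a soluble carrier that takes cholesterol to the endoplasmic reticulum (chromosome 5 from 111496033 to 111512590), held 14.5, 17.3 and 14.2 CPM in shCTR and 27.9, 22.5 and 23.5 CPM in shNSD2. No library of one group came near the other. It rose 1.604-fold (log2 0.68, SE 0.119, edgeR adjusted p = 0.00348) and was called in every fit with a library left out, with an adjusted p of at most 0.0189. NPC1 and NPC2, the pair of proteins that release cholesterol from the lysosome, had differences of opposite sign. NPC1 had 228, 184 and 158 CPM in shCTR and 162, 151 and 124 CPM in shNSD2 (log2 -0.39, edgeR adjusted p = 0.0608), and NPC2 had 28.0, 26.1 and 39.4 CPM and 36.9, 38.6 and 40.8 CPM (log2 0.32, adjusted p = 0.106). In both genes shCTR 4 stood within the range of the knockdown libraries. Without it NPC1 was lower (log2 -0.50, adjusted p = 0.00163) and NPC2 higher (log2 0.52, adjusted p = 0.000203), whereas with the GC and length correction NPC1 was at -0.25 (adjusted p = 0.118) and NPC2 at 0.32 (adjusted p = 0.0640). MYLIP, the ubiquitin ligase that removes lipoprotein receptors when sterol is high, had 21.2 to 28.3 CPM in shCTR and 21.6 to 25.0 CPM in shNSD2 (log2 -0.13, edgeR adjusted p = 0.409).

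In storage the change was a fall. SOAT1, the acyltransferase that makes cholesteryl esters for lipid droplets (chromosome 1 from 179293714 to 179358680), had the largest change of all members. It held 146, 104 and 89.6 CPM in shCTR and 46.0, 60.1 and 52.8 CPM in shNSD2. Even the lowest control was well above the highest knockdown library, and the fall was 2.13-fold (log2 -1.09, SE 0.167, edgeR adjusted p = 0.00204). It was called lower in all 15 alternative fits, with log2 values of -1.24 to -0.88 when a library was left out.

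NR1H2, which encodes the liver X receptor beta (chromosome 19 from 50329653 to 50382982), held 44.9, 55.0 and 62.4 CPM in shCTR and 87.9, 76.6 and 76.4 CPM in shNSD2. All knockdown libraries were above the controls, and it rose 1.48-fold (log2 0.57, SE 0.120, edgeR adjusted p = 0.00723), a call kept in all 15 alternative fits. ABCG1, an export pump induced by that receptor, had 16.9, 12.5 and 9.85 CPM in shCTR and 16.4, 14.8 and 14.5 CPM in shNSD2. The shCTR libraries enclosed all 3 knockdown values, and the difference did not pass the test (log2 0.22, edgeR adjusted p = 0.340), though it did without shCTR 1 (log2 0.44, adjusted p = 0.0431). Without shCTR 4 it was 0.055 (adjusted p = 0.749). ABCA1, the main exporter to apolipoproteins, had 4, 7 and 2 counts in shCTR and 4, 6 and 2 counts in shNSD2. At that depth a fall or a modest change was not detectable.

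**Figure D3:**
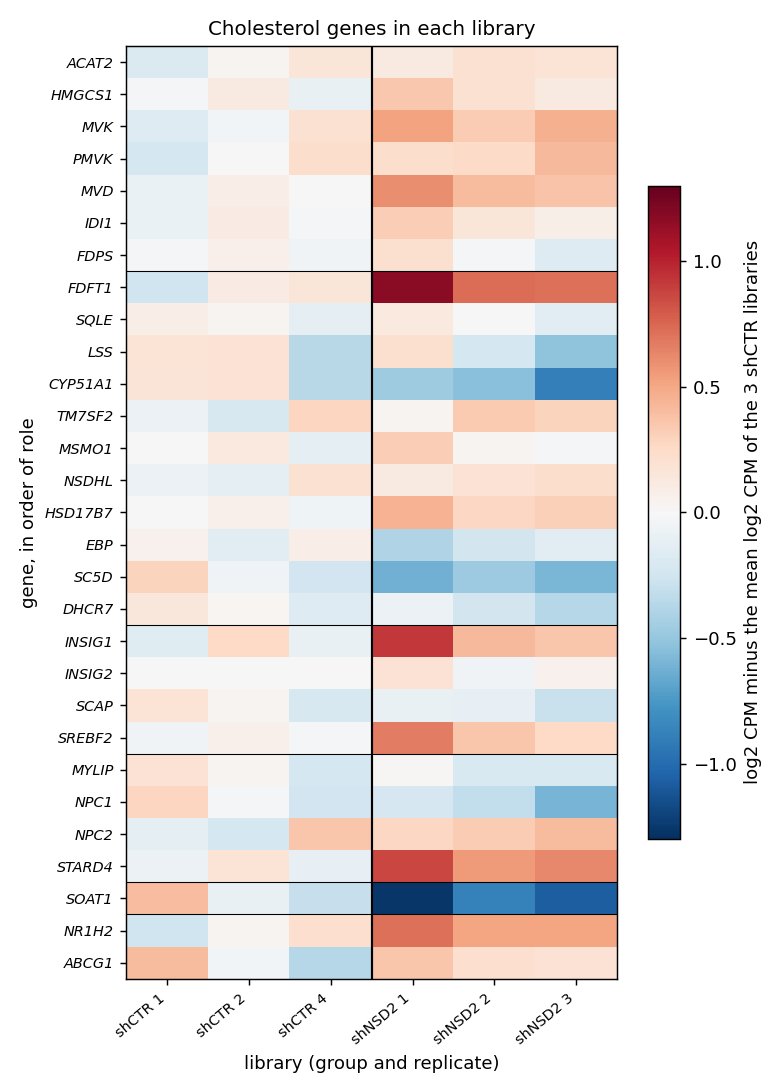
Each gene's log2 CPM in each library minus its mean log2 CPM over the 3 shCTR libraries (colour), with libraries on the horizontal axis and the 29 genes on the vertical axis in order of role. SOAT1, CYP51A1 and SC5D are lower and FDFT1, STARD4, INSIG1 and NR1H2 higher in all 3 shNSD2 libraries, and shCTR 4 leans towards the knockdown libraries in genes such as NPC2, LSS and TM7SF2.

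The synthesis enzymes and the other genes were also set side by side. Among the 18 synthesis enzymes 4 rose and 2 fell, a share called of 33.3%, and among the 11 other genes tested 4 rose and 1 fell, or 45.5%, beside 30.7% of all genes tested. The median log2 fold change was 0.17 for the synthesis enzymes and 0.22 for the other genes, beside 0.0054 over all genes tested. The order of these medians depended on the fit. They were 0.08 and 0.24 with the GC and length correction, but 0.23 and 0.10 with the replicate block and 0.17 and 0.07 without shCTR 4. Against the mean of the controls, the median synthesis enzyme stood at -0.02, 0.05 and -0.03 in shCTR 1, 2 and 4 and at 0.21, 0.17 and 0.09 in shNSD2 1, 2 and 3 on the log2 CPM scale. The median of the other genes stood at 0.00, 0.03 and -0.10 in the controls and 0.27, 0.22 and 0.19 in the knockdown libraries. For both lists the knockdown libraries were above the controls, with shNSD2 1 highest, and a difference between the lists was not tested. Within synthesis, the 7 genes up to farnesyl diphosphate had medians of -0.08, 0.06 and 0.00 in shCTR 1, 2 and 4. In shNSD2 1, 2 and 3 they had 0.32, 0.20 and 0.18. The 11 genes from squalene onward had 0.05, 0.04 and -0.12 in the controls. Their medians of 0.11, 0.00 and -0.13 in the knockdown libraries covered nearly the same range. The contrast between these stretches was seen in the data and not tested.

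Counts of called genes moved with the libraries used. Without shCTR 4, where the background rose to 46.5% of genes tested, 7 synthesis enzymes were higher and 3 lower, and 5 of the other genes were higher and 3 lower. Without other single libraries, 2 or 3 synthesis enzymes were higher and 1 or 2 lower. Calls over all genes were then fewer too, 1116 to 1491 higher and 1320 to 1734 lower. The smaller counts therefore say nothing particular about these genes. A correction for GC content and gene length called 6 synthesis enzymes higher and 4 lower, beside 2885 higher and 2431 lower of 17111 genes tested. It added HMGCS1 (log2 0.33, edgeR adjusted p = 0.0210) and IDI1 (0.28, adjusted p = 0.0425) above and EBP (-0.37, adjusted p = 0.0127) and DHCR7 (-0.33, adjusted p = 0.0433) below.

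**Figure D4:**
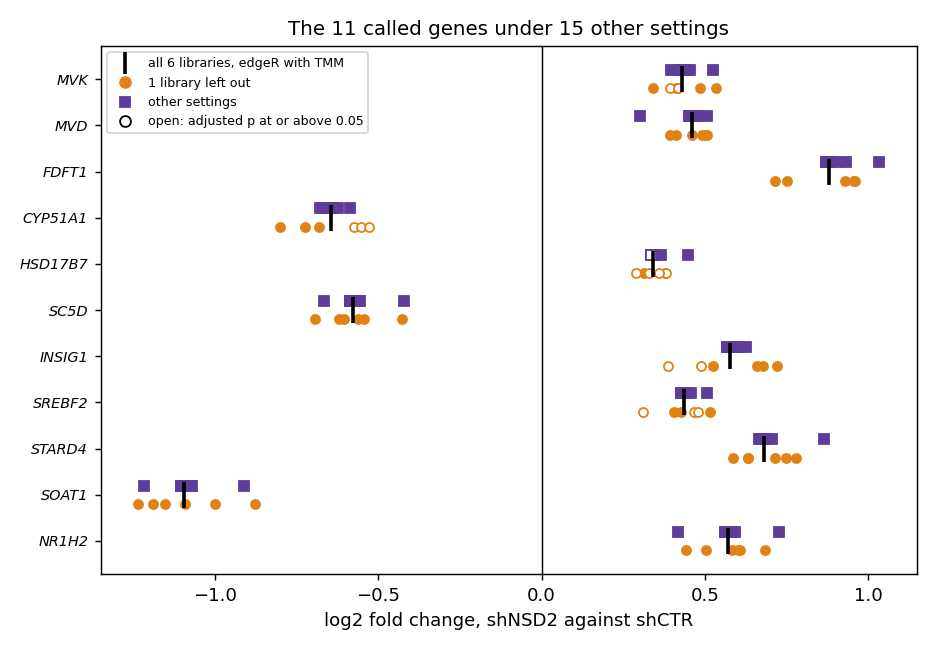
Log2 fold change (horizontal axis) of the 11 called genes (vertical axis) with all 6 libraries (black bar), with 1 library left out (circles) and under the other settings (squares). Open symbols have an adjusted p at or above 0.05. All values of a gene keep their sign, and MVD, FDFT1, SC5D, STARD4, SOAT1 and NR1H2 have filled symbols only.

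Further genes of the pathway were taken from a list of 65, with a row for 61 and a test for 57. In this list 8 rose and 19 fell, a share of 47.4% called beside 30.7% of all genes tested, of which 15.5% were higher and 15.2% lower. The median log2 fold change was -0.04, beside 0.0054 over all genes. In the processing and sensing of SREBP, 5 of 10 fell and 0 rose by edgeR, and 0 were higher at an unadjusted p under 0.05, by the DESeq2 Wald test or by limma-voom. The share lower was 50%, beside 15.2% of all genes tested, and with 10 genes nothing particular to them is read from it. MBTPS2, the site-2 protease that releases SREBP from the membrane, went from 86.0 ± 23.6 to 47.5 ± 6.89 CPM (SD, n = 3; log2 -0.86, edgeR adjusted p = 0.00749). ERLIN1, which binds the SREBP-SCAP-INSIG complex, fell by 0.48 on the log2 scale. MBTPS1, the site-1 protease, fell by 0.41 and was named after its value was seen. These protease genes fell while SREBF2 itself rose, a call SREBF2 kept in 3 of 6 fits with a library left out. For MBTPS2, shCTR 4 at 61.0 CPM stood nearer to the knockdown libraries than to shCTR 1 and 2, at 108 and 89.2 CPM. A link between these changes was not tested.

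Among further genes of uptake and transport 4 of 19 rose and 6 fell, 52.6% called beside 30.7% of all genes tested. GRAMD1B, an Aster protein that moves cholesterol from the plasma membrane inwards, rose (log2 2.15, edgeR adjusted p = 0.00160) at low levels, 0.316 ± 0.0660 CPM in the controls and 1.42 ± 0.227 CPM with the knockdown (SD, n = 3). Its relative GRAMD1A rose by 0.50 on the log2 scale. TMEM97, a sterol-regulated partner of NPC1, fell (log2 -0.61, edgeR adjusted p = 0.00201) from a control level of 208 ± 16.5 CPM to 136 ± 5.88 CPM (SD, n = 3), and LIPA, the lysosomal acid lipase that frees cholesterol from its esters, fell by 0.49. In storage and oxysterol metabolism, with 3 genes tested, 1 rose and 1 fell, 66.7% called beside 30.7% of all genes tested. The sulphotransferase gene SULT2B1 rose (log2 0.88). NCEH1, a hydrolase of cholesteryl esters, fell (log2 -0.71, from 70.7 ± 20.3 to 43.2 ± 3.12 CPM, SD, n = 3). SOAT1, which makes cholesteryl esters, and NCEH1 and LIPA, which split them, were thus each lower.

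In further synthesis and the isoprenoid branch 2 of 16 rose and 6 fell, 50% called beside 30.7% of all genes tested. GGPS1, geranylgeranyl diphosphate synthase, rose by 0.36 on the log2 scale and the mitochondrial thiolase gene ACAT1 by 0.32 (edgeR adjusted p = 0.0210 and 0.0499). FAXDC2, a hydroxylase-domain gene related to the sterol oxidases, had the largest fall of the list (log2 -1.048), with controls at 15.2 ± 3.35 CPM and knockdown libraries at 7.38 ± 0.962 CPM (SD, n = 3, edgeR adjusted p = 0.00261). In export and its control the share called was 22.2%, below those 30.7%: 1 of 9 rose, the mitochondrial translocator gene TSPO (log2 0.48), and 1 fell, the corepressor gene NCOR1 (log2 -0.29). The count of higher genes in the whole list ranged from 3 to 10 and that of lower genes from 5 to 22 when a library was left out. Over all genes these fits called 1116 to 4251 higher and 1320 to 4011 lower. With the GC and length correction 9 genes of the list were higher and 14 lower, beside 2885 and 2431 over all genes. Without the low-count filter 7 were higher and 16 lower.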

How the data were processed

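The authors deposited raw read counts per gene, judged from whole numbers that sum to unequal totals. CASAVA 1.8.2, STAR 2.6.0a and GRCh38 are named in the submitters' processing notes. The counting program, the annotation the authors counted on and the strand setting were not given in the sources used here. Titles gave the groups. The test was edgeR 4.0.16 (R 4.3.3): on these counts filterByExpr by group left 17160 genes, factors were TMM, and the quasi-likelihood test had no covariate. P-values were adjusted by Benjamini-Hochberg over all genes tested, and under 0.05 a gene was called. CPM was computed from the deposited counts. SE and 95% intervals follow from the log2 fold change and F. The fit was tested on simulated data.

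The members and lists were chosen with earlier results of these data known. Every member was named, and from each role of the further list the 2 called genes of smallest p in each direction; some genes are not reported here. Coordinates and exon lengths are from GENCODE 29 (GRCh38), and promoters from RefSeq. No pair of libraries agreed within sampling noise. Alternatives were DESeq2 1.42.0 (size factors and Wald test), limma-voom (limma 3.58.1), upper-quartile factors, library size alone, 2 other filters, a replicate block, a GC and length correction, and each library left out.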

Additional observations from a re-analysis of the deposited data

How the results depend on the processing

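The call of each of the 11 called genes kept its direction in all 15 alternative fits, and its side of the threshold in 98 of 99 fits that kept all libraries or used the replicate block, the exception being HSD17B7 with the replicate block (log2 0.33, edgeR adjusted p = 0.0623). Leaving out a library cost the call in 16 of 66 fits. With a library left out, calls over all genes ran from 1116 to 4251 higher and from 1320 to 4011 lower, synthesis enzymes from 2 to 7 higher and 1 to 3 lower, sensing, uptake, storage and export genes from 2 to 5 higher and 1 to 3 lower, further pathway genes from 3 to 10 higher and 5 to 22 lower, and the medians from 0.114 to 0.173 for synthesis enzymes and 0.067 to 0.254 for the other genes. The GC and length correction gave 4 synthesis enzymes lower and a synthesis median of 0.077. The other genes had 2 lower by the DESeq2 Wald test, NPC1 being added (log2 -0.40, adjusted p = 0.0311), and a median of 0.147 without the low-count filter, where ABCA1 enters. The cause was not tested in the other cases.

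The replicate block could use only the libraries numbered 1 and 2 in both groups, and their deviations from the group means correlated at 0.04 and -0.17 over genes, so the numbers are not taken to pair libraries. It gave a synthesis median of 0.230, a median of 0.104 for the other genes and 2 of these lower. Among genes not called, FDPS had log2 values of -0.076 with the GC and length correction and -0.088 to 0.093 with a library left out. SQLE had 0.021 with upper-quartile factors, 0.0058 with library size alone, 0.0019 without the filter, 0.0080 with the replicate block, 0.044 with the GC and length correction, and -0.062 to 0.061 with a library left out. Scaling moved the median of all genes to between -0.003 and 0.028. Among the members, ABCA1 alone was limited by depth.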

Other observations

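Genes that share exon bases with a member were looked at after the values were seen. MMAB, an enzyme gene of cobalamin metabolism that overlaps MVK on the opposite strand over 306 exon bases, rose with it, from 59.2 ± 9.97 to 80.4 ± 2.77 CPM (SD, n = 3; log2 0.44, edgeR adjusted p = 0.0175). STARD4-AS1, which overlaps STARD4 over 124 exon bases, moved the other way, from 4.26 ± 0.760 to 2.58 ± 0.300 CPM (SD, n = 3; log2 -0.72, edgeR adjusted p = 0.0179). TCP1, which overlaps ACAT2, had a log2 difference of 0.10 (edgeR adjusted p = 0.462). HSD17B7P2, the pseudogene that resembles HSD17B7, had a log2 difference of 0.33 (edgeR adjusted p = 0.115), close in size to that of HSD17B7. How many reads of each pair were assigned to the other gene was not tested.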
